A study of Rattus norvegicus with 36 samples.

Results

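The transcripts of the heme synthesis enzymes Alas1, Alad, Uros, Urod, Cpox, Ppox and Fech were followed in rat liver across 5 doses of a flame retardant, to ask whether the genes that supply heme follow the induction of cytochrome P450 genes. The arrays measured transcripts only, so heme itself and the amount or activity of the enzymes were not read. Probe sets were taken where the platform annotation names 1 of these 7 symbols and no other gene. The 7 genes, of 14217 measured, had 8 of 31042 probe sets, with 2 for Uros and 1 for each other gene. Uros was read by its brighter probe set, and the dimmer one is given beside it.

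Male Sprague Dawley rats, 7 weeks old when dosing began, received decabromodiphenylethane (DBDPE), a brominated flame retardant, by gavage once on each of 5 days. Each of the 6 groups held 6 animals. They were given either the vehicle, or DBDPE at 0.1, 0.97 and 9.71 mg/kg per day in the lower dose groups and at 97.1 and 970 mg/kg per day in the upper ones. Every animal, vehicle animals included, was given corn oil at 5 ml/kg. A piece of the left liver lobe was taken on the day after the last dose, and its RNA was hybridised to an Affymetrix 3′ array. Levels are log2 signals, on which a step of 1 is a doubling of signal, and signals of different genes are not compared because probe sets differ in brightness. The hepatocyte genes Alb (albumin, mean 14.66) and Ttr (transthyretin, 14.22) were near the top of the scale, all 9 hepatocyte markers lay above the median probe set, and array medians lay between 5.07 and 5.12. Each array measured a piece of whole liver, so that fewer cells of a type and less RNA per cell cannot be told apart.

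Heme is built in a chain of enzymes that starts and ends in mitochondria. Alas1 joins glycine to succinyl-CoA in the mitochondrion and is the rate-limiting step in liver; Alad, Uros and Urod act in building the porphyrin ring in the cytosol, and Cpox, Ppox and Fech finish it in mitochondria, where Fech inserts the iron. Much of the heme made in hepatocytes goes into cytochrome P450 enzymes, Alas1 is known to be induced by drugs that activate CAR and PXR and to be repressed by heme, and Cyp1a1 is the classical target of the aryl hydrocarbon receptor (AhR).

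The region around the start site of 6 of the 7 members was found in RefSeq's rat promoter windows (assembly GRCr8), each running from 250 bases before to 50 bases after the start. These windows were searched on both strands for the core of the AhR binding site, GCGTG, because Cyp1a1 is its target. Those of Alas1 and Alad, the first enzymes of the chain, and of Cyp1a2, a P450 gene that rose with dose, are shown with that core or its reverse complement in capitals. Alas1 lies on the minus strand at chr8:115768593-115768892, Alad on the minus strand at chr5:80987852-80988151 and Cyp1a2 on the minus strand at chr8:66978100-66978399.
Alas1: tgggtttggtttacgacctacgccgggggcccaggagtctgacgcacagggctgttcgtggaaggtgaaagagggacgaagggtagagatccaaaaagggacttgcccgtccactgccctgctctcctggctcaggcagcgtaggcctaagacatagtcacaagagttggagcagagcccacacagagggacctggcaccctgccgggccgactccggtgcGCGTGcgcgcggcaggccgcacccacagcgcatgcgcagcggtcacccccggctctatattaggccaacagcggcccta
Alad: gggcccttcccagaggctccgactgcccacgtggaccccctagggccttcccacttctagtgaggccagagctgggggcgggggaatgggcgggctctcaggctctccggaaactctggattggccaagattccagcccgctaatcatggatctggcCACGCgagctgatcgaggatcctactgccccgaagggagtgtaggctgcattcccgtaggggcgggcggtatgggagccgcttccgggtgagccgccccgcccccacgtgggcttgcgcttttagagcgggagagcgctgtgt
Cyp1a2: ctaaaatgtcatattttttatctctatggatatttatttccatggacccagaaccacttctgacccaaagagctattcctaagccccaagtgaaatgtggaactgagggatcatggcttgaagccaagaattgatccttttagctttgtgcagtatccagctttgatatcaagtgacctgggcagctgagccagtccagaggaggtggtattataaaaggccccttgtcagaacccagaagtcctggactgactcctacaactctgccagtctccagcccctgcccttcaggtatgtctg
The core was found in 4 of the 6 member windows, with its leftmost base at position -29 from the start in Alas1, -93 in Alad, -19 in Uros and -61 in Fech, where negative positions lie before the start. It was not in the windows of Urod, Ppox or Cyp1a2. No window was found for Cpox or for Cyp1a1, and bases outside the windows were not searched. In all, 29.7% of the 33469 rat windows hold the core, and a match of 5 letters describes the window and is not a binding site. Alas1 also held, at positions -31 and -2, the core of the site of the mitochondrial regulator Nrf1, which is GCGCA followed after any single base by GCGC, and the match at -31 overlaps the GCGTG match; 4.25% of all windows hold it and no other member did. The E-box CACGTG, which clock factors bind, was in 2 member windows (Alad and Urod) and in 6.42% of all windows. The Rev-erb half-site AGGTCA and the cAMP response element TGACGTCA were in 0 of 6 member windows, against 16.2% and 1.83% of all windows, while the FoxO core GTAAACA was in that of Urod and in 3.78% of all.

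The P450 genes that set the scale for this question were the probe sets past the threshold at both top doses. Cyp1a1, which oxidises polycyclic aromatic compounds, had a lowest, median and highest signal of 10.02, 10.81 and 11.81 at 970 mg/kg, against 4.35, 4.55 and 4.76 in vehicle livers, a log2 fold change of 6.23 (95% interval 5.66 to 6.80, limma adjusted p = 9.190e-18). At 97.1 mg/kg it had 6.66, 8.22 and 9.26, a log2 fold change of 3.49 (2.92 to 4.05, adjusted p = 6.455e-10). Cyp1a2, a major liver P450, had 13.58, 13.67 and 13.78 at 970 mg/kg, against 12.58, 12.85 and 12.93 in vehicle livers, a log2 fold change of 0.86 (0.74 to 0.99, adjusted p = 9.909e-12). The 6 animals at 970 mg/kg were above all vehicle animals in both genes.

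None of the 7 heme synthesis genes passed the test at any dose. Over the 35 combinations of member and dose, log2 fold changes lay between -0.17 and 0.11, 0 passed limma's adjusted threshold of 0.05, 2 had an unadjusted p under 0.05, and the lowest adjusted p was 0.963. Both of these were at 0.97 mg/kg (Uros and Urod), where 4.92% of all probe sets had an unadjusted p under 0.05. Of all probe sets, 0% passed at 0.1, 0.97 and 9.71 mg/kg and 0.00644% (2 probe sets, Cyp1a1 and Cyp1a2) passed at each of 97.1 and 970 mg/kg, so that a count of 0 among 7 is what that background gives and the sizes and intervals carry the comparison. Leaving out Alas1, the 95% intervals of the other 6 genes lay within 0.808-fold and 1.2-fold of vehicle at every dose. This bound takes the brighter probe set of Uros, and the interval of the dimmer one reached 1.25-fold at 0.97 mg/kg. The median log2 fold change of the 7 genes was -0.04 at 970 mg/kg with 2 of 7 above 0, and 0.02 at 97.1 mg/kg with 4 of 7 above 0; over all genes it was -0.005 with 47.5% above 0 at 970 mg/kg and -0.001 with 49.6% above 0 at 97.1 mg/kg. Also in the contrast of 970 with 97.1 mg/kg, in the F test over all doses and in the slope per dose step, 0 of 7 members passed; 0.00644% of all probe sets, the same 2, passed in each.

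**Figure D1:**
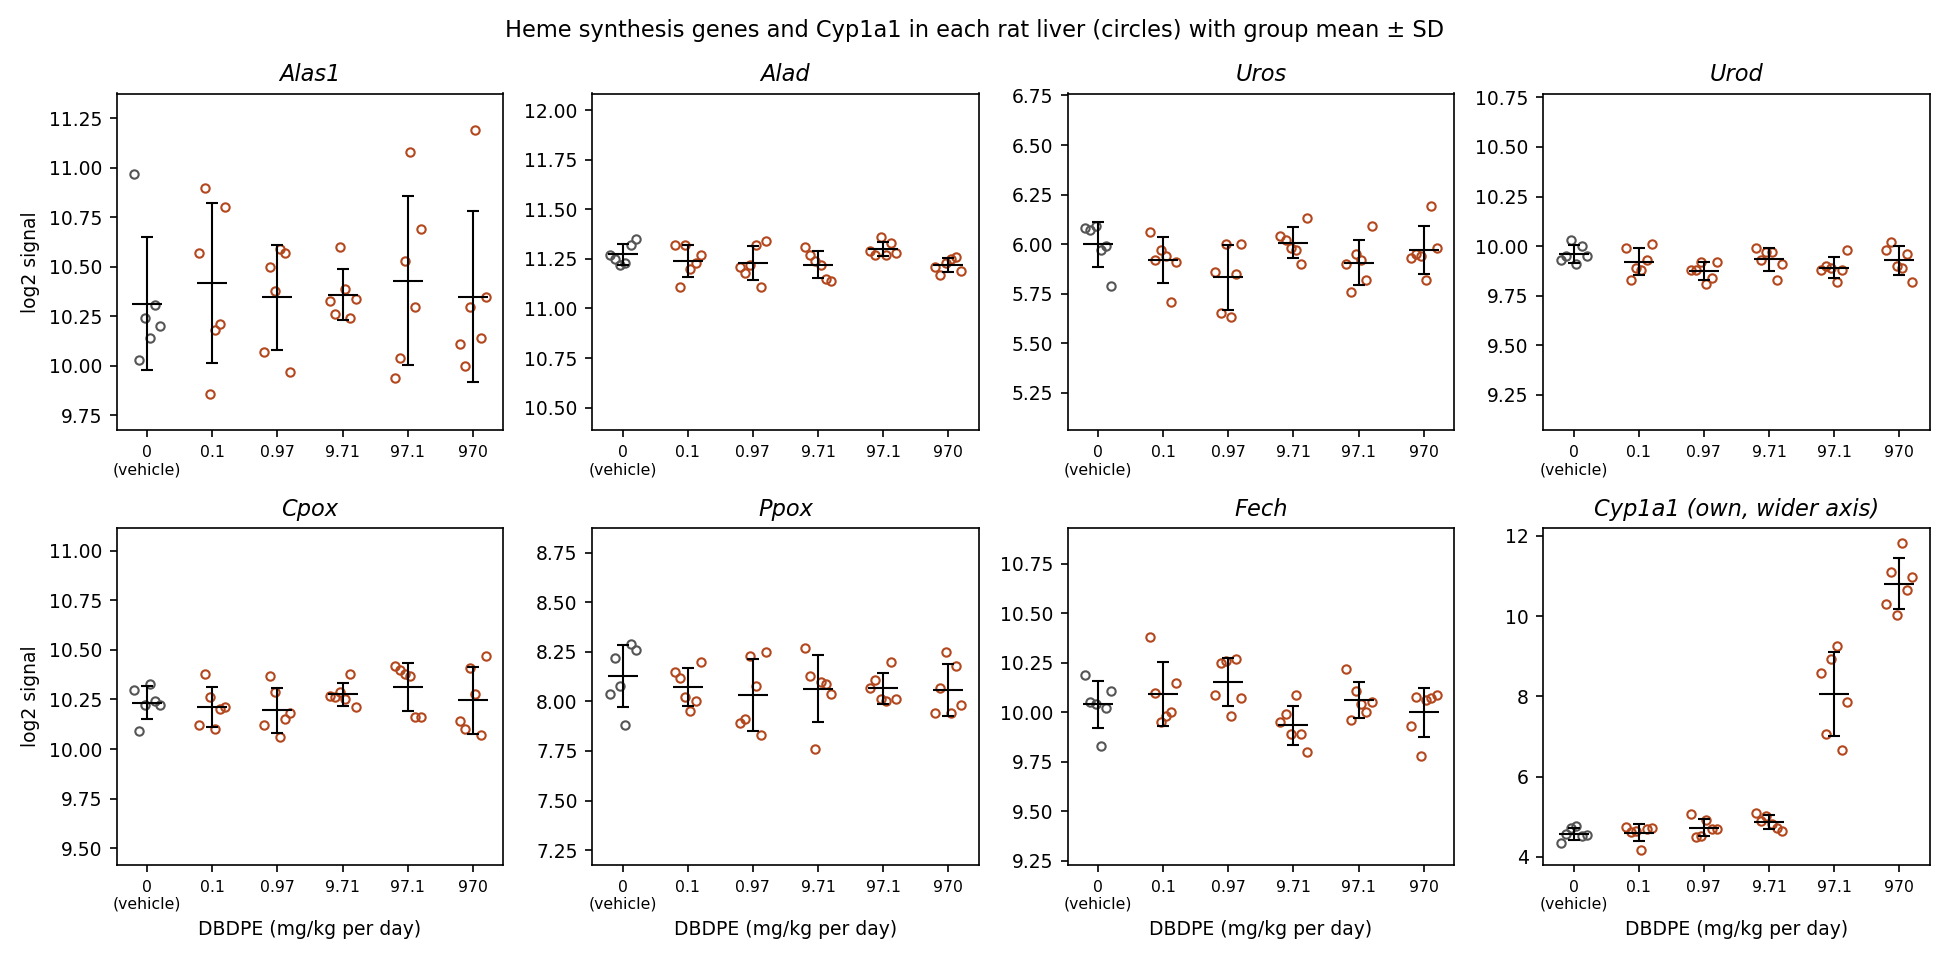
Log2 signal (vertical axes) of the 7 heme synthesis genes and Cyp1a1 in each animal (circles) by DBDPE dose in mg/kg per day (horizontal axes), with the group mean and SD (bars, n = 6). The member panels share 1 height of scale, on which Alas1 spreads from 9.86 to 11.19 within and across doses while Alad and Urod stay in narrow bands; Cyp1a1, on a wider scale, climbs at 97.1 and 970 mg/kg.

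Alas1, the rate-limiting enzyme, had the same median in 970 mg/kg and vehicle livers. Its lowest, median and highest signals were 9.999, 10.22 and 11.19 at 970 mg/kg, against 10.03, 10.22 and 10.97 in vehicle livers. The groups overlapped almost wholly, with 1 of 6 animals at 970 mg/kg above and 1 below all vehicle animals. The log2 fold change was 0.03 (-0.35 to 0.42, adjusted p = 0.993), so that its interval ran from 0.785-fold to 1.33-fold. At 97.1 mg/kg the signals were 9.94, 10.41 and 11.08, with a log2 fold change of 0.11 (-0.27 to 0.49, adjusted p = 0.997), an interval of 0.83-fold to 1.41-fold. The group means in order of level were 10.43 ± 0.42 at 97.1, 10.42 ± 0.40 at 0.1, 10.36 ± 0.13 at 9.71, 10.35 ± 0.43 at 970, 10.35 ± 0.27 at 0.97 mg/kg and 10.32 ± 0.33 in vehicle livers (SD, n = 6 each), and no neighbours in that order differed by more than these SDs. Between 970 and 97.1 mg/kg, the step over which Cyp1a1 rose by a further log2 2.75 (2.18 to 3.32, adjusted p = 4.365e-07), Alas1 had a log2 fold change of -0.08 (-0.46 to 0.30, adjusted p = 0.999), and its slope was 0.01 per dose step (-0.06 to 0.07, adjusted p = 0.990). Its direction turned when single animals were left out: the value at 970 mg/kg was -0.13 without replicate 4 of that dose and 0.16 without vehicle replicate 1.

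In the cytosolic steps, Alad, which condenses aminolevulinic acid into porphobilinogen, had 11.17, 11.22 and 11.26 at 970 mg/kg, against 11.22, 11.26 and 11.35 in vehicle livers. Its log2 fold change was -0.05 (-0.14 to 0.04, adjusted p = 0.972), and 3 of 6 animals lay below all vehicle animals. At 97.1 mg/kg the value was 0.03 (-0.06 to 0.12, adjusted p = 0.997). These intervals, and those of Urod, were the narrowest of the 7 genes.

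Uros closes the porphyrin ring. It had 5.82, 5.94 and 6.19 at 970 mg/kg, against 5.79, 6.03 and 6.09 in vehicle livers, a log2 fold change of -0.03 (-0.17 to 0.11, adjusted p = 0.985), and the groups overlapped. At 0.97 mg/kg Uros had the lowest log2 fold change of any member, -0.17 (-0.31 to -0.02, unadjusted p = 0.0236, limma adjusted p = 0.985). Its dimmer probe set had 0.14 (-0.05 to 0.32) at that dose, the opposite direction. The 2 probe sets correlated weakly over the 36 animals once group means were removed (r = 0.34, rho = 0.31), and both were dim, with mean levels of 5.94 and 5.72 against a median of 5.09 over all probe sets.

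Urod, which removes carboxyl groups from uroporphyrinogen and is the enzyme deficient in porphyria cutanea tarda, had 9.82, 9.93 and 10.02 at 970 mg/kg, against 9.91, 9.95 and 10.03 in vehicle livers. The log2 fold change was -0.04 (-0.12 to 0.05, adjusted p = 0.979). Its mean was below the vehicle mean of 9.96 at all 5 doses, with values of -0.04, -0.09, -0.03, -0.07 and -0.04 from the lowest dose to the highest, comparisons that share the vehicle animals. At 0.97 mg/kg the unadjusted p was 0.0377 and limma's adjusted p was 0.985, and at 97.1 mg/kg, where 5 of 6 animals lay below all vehicle animals, the adjusted p was 0.963.

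In the mitochondrial steps, Cpox, which oxidises coproporphyrinogen, had 10.07, 10.21 and 10.47 at 970 mg/kg, against 10.09, 10.23 and 10.33 in vehicle livers, a log2 fold change of 0.01 (-0.12 to 0.15, adjusted p = 0.992). At 97.1 mg/kg 4 of 6 animals were above all vehicle animals, and the value was 0.08 (-0.05 to 0.22, adjusted p = 0.988). The spread of Cpox at 970 mg/kg, an SD of 0.17, was the widest of its 6 groups and put 2 animals above and 1 below all vehicle animals. Ppox, which oxidises protoporphyrinogen, had 7.94, 8.02 and 8.25 at 970 mg/kg, against 7.88, 8.15 and 8.29 in vehicle livers, a log2 fold change of -0.07 (-0.23 to 0.10, adjusted p = 0.979). All 6 animals at 970 mg/kg lay inside the vehicle range.

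Fech, the ferrochelatase, had 9.78, 10.06 and 10.09 at 970 mg/kg, against 9.83, 10.04 and 10.19 in vehicle livers, a log2 fold change of -0.04 (-0.18 to 0.11, adjusted p = 0.979). At 97.1 mg/kg the value was 0.02 (-0.12 to 0.17, adjusted p = 0.997). Fech had the lowest p of the 7 genes in the moderated F test over all doses (limma adjusted p = 0.999, unadjusted 0.0631). Its group means followed no dose order: the log2 fold change was 0.11 at 0.97 mg/kg, where 3 of 6 animals were above all vehicle animals, and -0.11 at 9.71 mg/kg. Dose group accounted for 28.2% of the variance of Fech over the 36 animals, against 1.59% for Alas1, with 4.72% for Ppox and 13.6% to 24% for the others; with 6 groups and 36 animals, 14.3% is the share that no dose effect gives on average.

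**Figure D2:**
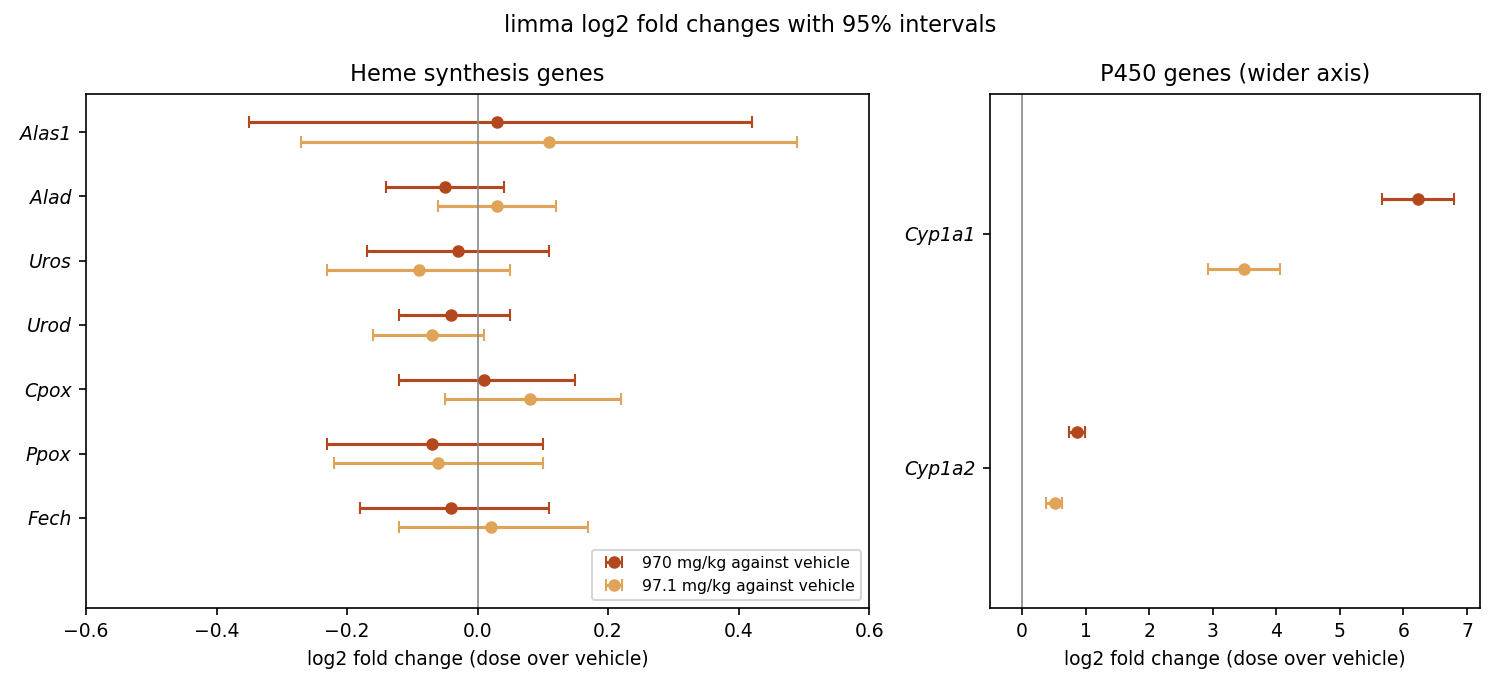
Log2 fold change over vehicle (horizontal axes) at 970 and 97.1 mg/kg with 95% limma intervals, for the 7 heme synthesis genes (left) and for Cyp1a1 and Cyp1a2 (right, wider axis). All 14 member intervals span 0, and that of Alas1 is the widest; the 4 P450 intervals lie above 0.

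The members differed widely in how much they varied between animals of a group. Alas1 had a within-group SD of 0.35, larger than that of 97.9% of all probe sets and of 95.9% of the 777 probe sets within 0.5 of its level. Its highest animal had 2.52 times the signal of its lowest. Urod had a within-group SD of 0.06, larger than that of 1.01% of all probe sets and of 3.26% of those near its level. Alad, with 0.06, exceeded 1.68% of all probe sets and 23.3% of those near its level, while Uros, Cpox, Ppox and Fech, with 0.11 to 0.14, exceeded 25.2% to 54.6% of all. Against probe sets near their own level, Cpox, Ppox and Fech exceeded 65.8%, 70.9% and 70.3%, and Uros exceeded 23.6%. The 5 highest Alas1 levels came from 4 groups: 970 mg/kg replicate 4 (11.19), 97.1 mg/kg replicate 4 (11.08), vehicle replicate 1 (10.97), and 0.1 mg/kg replicates 2 (10.90) and 6 (10.80).

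**Figure D3:**
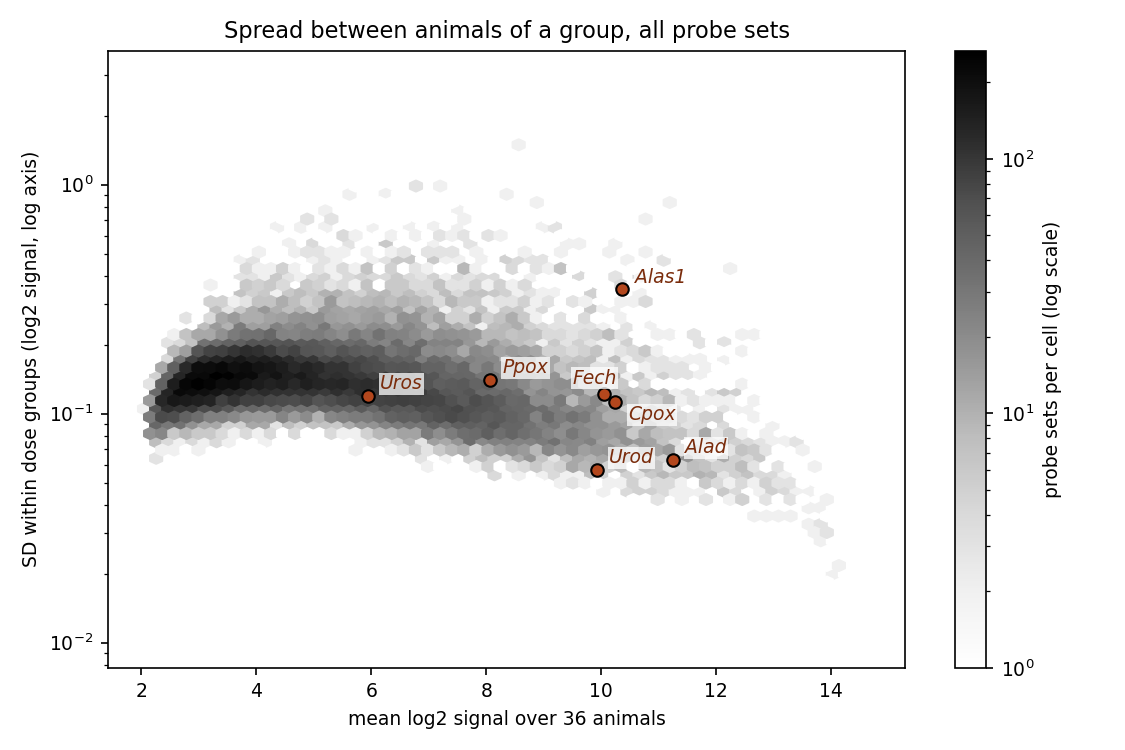
Within-group SD of log2 signal (vertical axis, log scale) against mean log2 signal (horizontal axis) for all probe sets (shaded cells, darker where more probe sets fall), with the 7 heme synthesis genes as labelled points. Alas1 stands above most probe sets of its level at an SD of 0.35; Urod, at 0.06, lies at the lower edge, and Alad has the same SD at a higher level.

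Within a dose group, Alas1 could be set against Cyp1a1 animal by animal. Animals at 970 mg/kg, at 97.1 mg/kg and at the lower doses with vehicle form separate clusters of Cyp1a1 level, so no r was taken over the levels of all 36 animals. With group means removed, r over the 36 was 0.36 and rho 0.15, and r in single groups ran from -0.75 to 0.68, given as a description with no test. At 970 mg/kg Pearson's r was 0.68 (exact permutation p = 0.157, adjusted over 14 relations p = 0.606) and Spearman's rho was 0.26 (exact p = 0.658). It rested on replicate 4, the animal highest in both genes (11.19 for Alas1 and 11.81 for Cyp1a1), without which r was -0.29; without the 2 animals farthest from the median of Cyp1a1 r was 0.08. At 97.1 mg/kg r was 0.50 (exact p = 0.303) and rho 0.49, and 0.29 without the 2 farthest animals, with replicate 4 again the highest in both genes (11.08 and 9.26). Of the 14 relations of a member with Cyp1a1, 0 passed after adjustment. The lowest p belonged to Ppox at 97.1 mg/kg (r = -0.85, exact p = 0.0208, adjusted p = 0.292; rho = -0.94, exact p = 0.0167, adjusted p = 0.233), which dropped to r = -0.22 without the 2 farthest animals. With 1 animal left out at a time, r for Ppox at 97.1 mg/kg stayed between -0.94 and -0.74. Fech had r = 0.75 at 970 mg/kg (exact p = 0.0986, adjusted p = 0.606, rho = 0.60). That r was 0.89 without the 2 farthest animals and 0.57 to 0.93 with 1 animal left out. At 97.1 mg/kg Fech had r = 0.60 (exact p = 0.206, adjusted p = 0.606), and 0.00 without the 2 farthest animals. Leaving out 2 animals leaves 4.

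**Figure D4:**
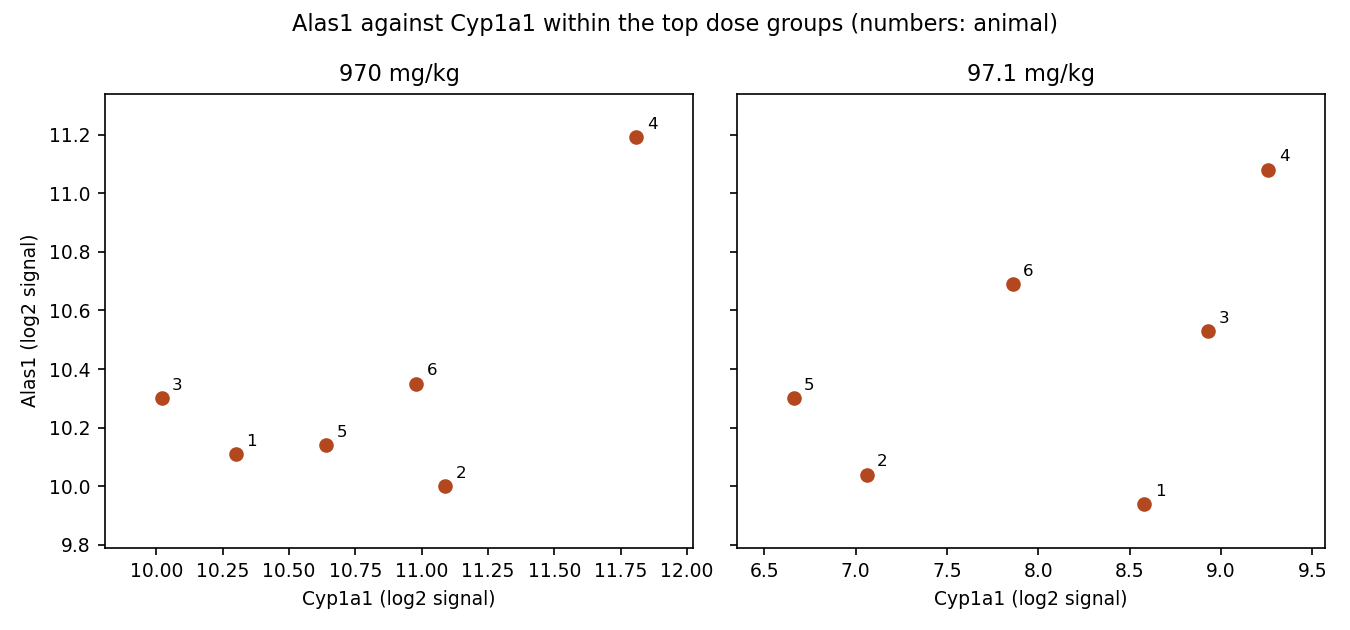
Alas1 log2 signal (vertical axis) against Cyp1a1 log2 signal (horizontal axes) in the 6 animals at 970 mg/kg (left) and at 97.1 mg/kg (right), numbered by replicate. In both groups replicate 4 is highest in both genes, and the other 5 animals at 970 mg/kg lie between 9.999 and 10.35 for Alas1.

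Relations between the members across animals were weak once group means were removed. Over the 21 pairs of members, r in 36 animals lay between -0.44 (Urod with Cpox, permutation p = 0.0173, adjusted p = 0.242) and 0.45 (Alad with Ppox, permutation p = 0.0164, adjusted p = 0.242), and 13 of 21 were above 0. Of 28 relations, these 21 and 7 of Alas1 with a chosen partner, 0 passed after adjustment. Alas1 had r = 0.28 with Fech, the last enzyme of the chain. Its r with the partners was 0.37 for the transferrin receptor Tfrc (permutation p = 0.0631, adjusted p = 0.408), 0.31 for the clock repressor Nr1d1, which is known to repress Alas1, 0.29 for the heme oxygenase Hmox1, 0.16 for Cyp1a2, and -0.33 for Ppargc1a (permutation p = 0.0786), the fasting coactivator known to induce Alas1. With the blood genes Alas2 and Hbb it was -0.01 and 0.04.

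Alas1 was also set against more genes. A set of 36 relations, of Alas1 with every measured gene of the lists of Alas1 regulators, clock genes and fasting genes, was added after seeing the data. Of the 36, 8 (22.2%) passed after adjustment, and the others, among them Clock (r = 0.00), Per2 (0.11), Pck1 (-0.19) and Bmal1 (-0.26), did not. The weakest r that passed was 0.50 in size; 4.99% of all 14216 other genes, and 7.08% of the 9571 at or above the median level, had an r with Alas1 at least that far from 0, and no test compared the lists with other genes. In 36 animals with group means removed, r was 0.70 with Hnf4a, the hepatocyte nuclear receptor (permutation adjusted p = 9.000e-04; rho = 0.73; 0.66 without the 2 farthest animals). It was 0.61 with Tat, the glucocorticoid-induced tyrosine aminotransferase (adjusted p = 0.00734; rho = 0.61), and 0.53 with Nrf1 (adjusted p = 0.00648; rho = 0.56), each above 0 in 6 of 6 groups. Without the 2 farthest animals r was 0.54 for Tat and 0.40 for Nrf1. The Nrf1 probe set was dim, with a mean level of 5.23 against a median of 5.09 over all probe sets. Opposite to Alas1 ran Cry2, a clock repressor (r = -0.67, adjusted p = 7.200e-04; rho = -0.65), Pdk4, which shuts off glucose oxidation in fasting (r = -0.62, adjusted p = 0.00648; rho = -0.55), Egr1 (r = -0.53, adjusted p = 0.0162; rho = -0.66) and the clock activator Npas2 (r = -0.53, adjusted p = 0.0162; rho = -0.45), each below 0 in 6 of 6 groups. Without the 2 farthest animals r was -0.64 for Cry2, -0.51 for Pdk4, -0.60 for Egr1 and -0.36 for Npas2. The weakest r in a single group was -0.07, -0.41, -0.15 and -0.06 in the same order. For Npas2 the permutation adjusted p of rho was 0.048. Per1 had r = 0.50 (adjusted p = 0.0162), but rho was 0.37 (adjusted p = 0.121) and r was 0.26 without the 2 farthest animals. The time of day at which animals were killed was not given in the sources used here.

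Of 9571 genes at or above the median level, 52 (0.543%) had an r with Alas1 of at least 0.7 in size over these residuals, against 4 for Alad, 7 each for Urod and Cpox and 0 each for Uros, Ppox and Fech. The genes closest to each member were ranked by r, and these ranks are given as a description. For Alas1 they were Tsku (0.84, rho = 0.86), a secreted liver protein, Fem1a (0.80) and the mitochondrial ribosome protein Mrpl47 (0.79). At the opposite end, looked at after the values were seen, were Ccng2 (-0.82, rho = -0.81) and Irs2, an insulin receptor substrate (-0.80). Alad was closest to Stk25 (0.81), Ppie and Mydgf, and Urod to Ndufs3, a subunit of mitochondrial complex I (0.80), Glo1 and Prdx5. Cpox was closest to Cacybp, Txnl1 and Rad23b (0.72 each), Ppox to Adra1b and Cmip (0.68 each) and Ntan1, Fech to Cers2 (0.65), Mrpl30 and Dnaaf9, and Uros to Ap3s2 (0.60), Ganc and G6pc3.

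**Figure D5:**
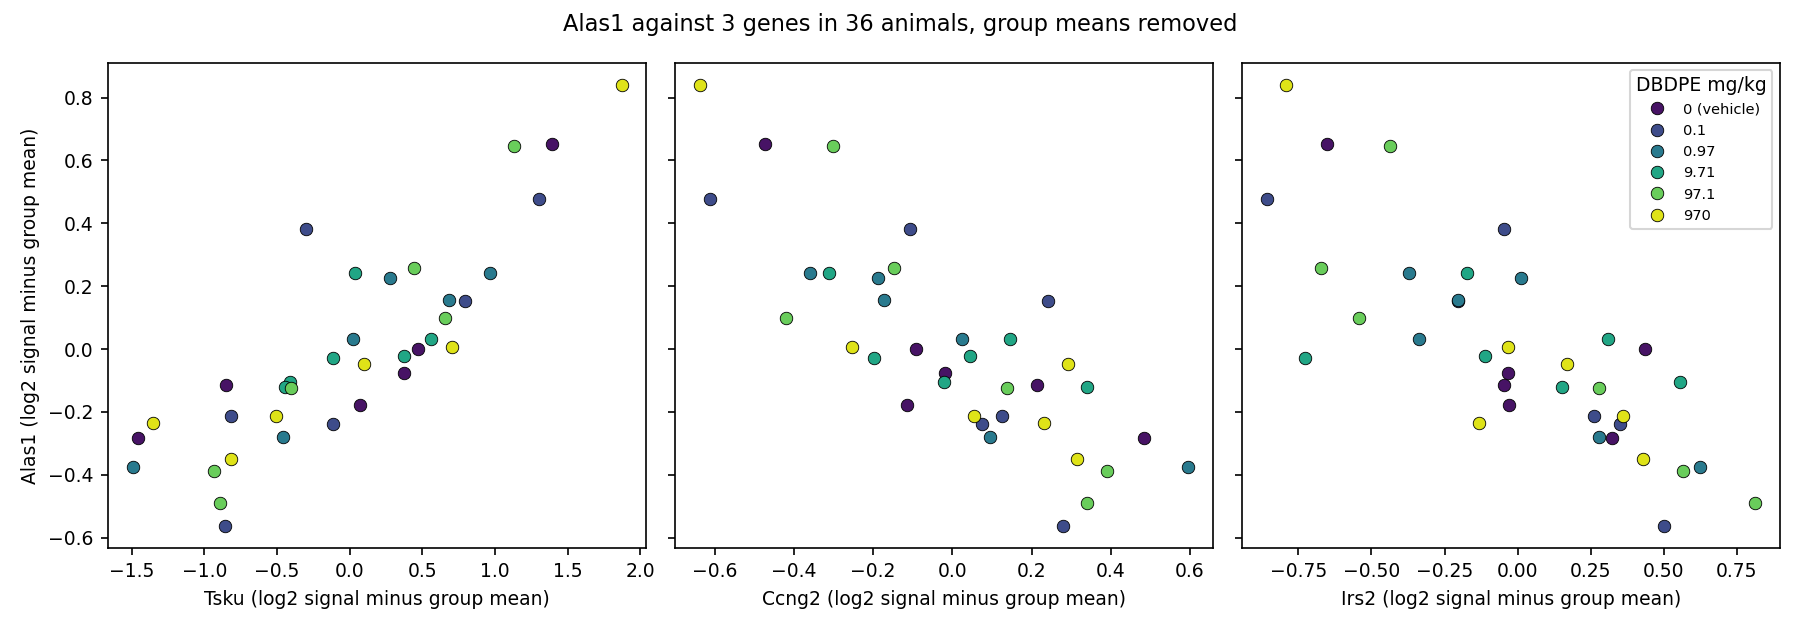
Alas1 (vertical axis) against Tsku, Ccng2 and Irs2 (horizontal axes) in 36 animals, each as log2 signal minus its dose group's mean, coloured by DBDPE dose. The genes were picked for their r over all animals, which was 0.84 for Tsku, -0.82 for Ccng2 and -0.80 for Irs2; in single groups r ran from 0.44 to 0.96, from -0.91 to -0.68 and from -0.91 to -0.29, and the groups were not compared.

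Genes on either side of heme synthesis were read from lists. Of 16 measured partners of the pathway in mitochondria (succinyl-CoA and glycine supply, porphyrin carriers, iron-sulfur assembly), 0 passed at any dose and the median log2 fold change at 970 mg/kg was -0.02 with 4 of 16 above 0. Examples are Abcb6, a porphyrin carrier, at -0.09 and Fdx2, a ferredoxin, at -0.10. Of 15 genes of heme breakdown and transport, 0 passed, 10 of 15 were above 0 and the median was 0.02. In iron supply 0 of 11 passed, with 3 of 11 above 0 and a median of -0.04; the transferrin receptor genes Tfrc and Tfr2 had -0.22 and -0.06. Other heme proteins, such as those of the respiratory chain, had 0 of 15 past the threshold and a median of -0.03.

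Hmox1, the inducible heme oxygenase that opens the heme ring, had 8.53 ± 0.12 at 970 mg/kg and 8.27 ± 0.14 in vehicle livers (SD, n = 6 each), with 6 of 6 animals above all vehicle animals. The separation was narrow, since the lowest animal at 970 mg/kg and the highest vehicle animal both had 8.41 after rounding. The log2 fold change was 0.26 (0.08 to 0.44), with an unadjusted p of 0.00577 and a limma adjusted p of 0.966, so it did not pass; 4.87% of all probe sets had an unadjusted p under 0.05 in that comparison. Its values at the lower doses were 0.13, 0.17, 0.17 and 0.20 from 0.1 to 97.1 mg/kg, comparisons that share the vehicle animals. Among 35 P450 genes and their electron donors only Cyp1a1 and Cyp1a2 passed at 970 mg/kg, 20 of 35 were above 0 and the median was 0.01. Cyb5a, the cytochrome b5 that passes electrons to P450s and itself carries heme, had 13.52 ± 0.06 at 970 mg/kg and 13.35 ± 0.05 in vehicle livers (SD, n = 6 each), a log2 fold change of 0.17 (0.10 to 0.24, limma adjusted p = 0.327) with 6 of 6 animals above all vehicle animals. The share of all probe sets separated in this way was not counted, so for Hmox1 and Cyb5a the separation is a description. Cyp7a1, which starts the conversion of cholesterol to bile acids, had -1.07 (-1.85 to -0.30, adjusted p = 0.966). Cyp3a23-3a1 had 0.20 (0.02 to 0.39, limma adjusted p = 0.966), and with it 5 of the 35 genes had an unadjusted limma p under 0.05 at 970 mg/kg.

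The regulators of Alas1 were read likewise, and 0 of 16 passed at 970 mg/kg, with 7 of 16 above 0 and a median of -0.05. Nr1d1 had 6.35 ± 0.42 at 970 mg/kg and 6.97 ± 0.39 in vehicle livers (SD, n = 6 each), a log2 fold change of -0.61 (-1.10 to -0.12, adjusted p = 0.966), and Nr1d2 had -0.47. Of 14 clock genes 0 passed, 6 of 14 were above 0 and the median was -0.09. An unadjusted limma p under 0.05 was found for 4 of the 14, against 4.87% of all probe sets. These were Nr1d1, Nr1d2, Cry2 at -0.23 and Dbp at -0.63 (limma adjusted p = 0.966 for each). Of 11 fasting genes 0 passed, with Pck1, the gluconeogenic carboxykinase, at -0.36 and Pdk4 at 0.42. Alas2, the form of the first enzyme used in red cell precursors, had 7.21 ± 0.33 at 970 mg/kg and 7.01 ± 0.19 in vehicle livers (SD, n = 6 each), a log2 fold change of 0.21 (-0.11 to 0.52, adjusted p = 0.968); at 9.71 mg/kg it had -0.42 (-0.74 to -0.11, adjusted p = 0.967).

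Blood cell precursors make heme too, and the erythroid markers moved little at 970 mg/kg. There 6 of 12 were above 0 and the median was 0.01. Their summed level lay between 74.8 and 77.8 at 970 mg/kg and between 74.8 and 76.6 in vehicle livers. At 0.1 mg/kg 7 of 12 were above 0 (median 0.01). At each of 0.97, 9.71 and 97.1 mg/kg 3 of 12 were above 0 (medians -0.12, -0.03 and -0.07). At 9.71 mg/kg 3 of 12 had an unadjusted limma p under 0.05, against 5.06% of all probe sets, and 0 passed at any dose. The mean level of 6 of the 12 was at or above the median probe set. Hbb, the beta globin, was high in every liver (11.65 to 12.79), while Slc4a1, the red cell anion exchanger, was below the median probe set (4.21 to 4.68). Kupffer cell and macrophage markers had 9 of 9 above 0 at 970 mg/kg with a median of 0.20 and 0 past the threshold, and their summed level lay between 71.8 and 76.5 at 970 mg/kg and between 69.3 and 77.1 in vehicle livers. The same markers had 9 of 9 above 0 at 0.1 mg/kg (median 0.15) and at 0.97 mg/kg (0.26). At 9.71 mg/kg 8 of 9 were above 0 (0.15) and at 97.1 mg/kg 7 of 9 (0.09), comparisons that share the vehicle animals. At 970 mg/kg hepatocyte markers had 2 of 9 above 0 and a median of -0.01. At that dose bile duct markers had 4 of 5 above 0 (median 0.10), endothelial markers 1 of 6 (-0.05), stellate cell markers 3 of 8 (-0.02) and neutrophil markers 5 of 5 (0.14), and 0 of these passed. Neutrophil markers had 5 of 5 above 0 also at 0.1 and 97.1 mg/kg, with 4 of 5 at 0.97 and 3 of 5 at 9.71 mg/kg. Only 1 of these 5 markers had a mean level at or above the median probe set. Their means at 970 mg/kg hide a wide spread. S100a8 had an SD of 0.92 there, against 0.05 in vehicle livers, with 1 animal above and 4 of 6 below all vehicle animals. S100a9 (SD 0.90) and Camp (SD 0.53) also had 1 animal above all vehicle animals. The part of these cell type markers in the values of Hmox1, a gene macrophages also express, was not tested.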

How the data were processed

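RMA and affy are the tools named in the submitters' processing notes, with no version stated. The authors deposited a log2 signal for each probe set and rat, quantile-normalized as RMA does. From these, 31042 probe sets (57 controls left out) in 36 samples were fitted with R 4.3.3 and limma 3.58.1 (6 group means, 30 residual degrees of freedom, moderated variances), two-sided, with Benjamini-Hochberg adjustment over all probe sets and a threshold of 0.05, and no filter on low values. The number of arrays limits the precision. Each sample was taken as its own rat.

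Gene names come from the platform annotation: 20826 probe sets name 1 gene, 436 several and 9780 none here; 20758 matched the rat RefSeq table. A gene was read by its probe set of highest mean. Permutation tests were two-sided: exact in a group of 6, and with 100000 shuffles within groups over residuals from group means. The members and the gene lists were chosen with earlier results of these data known. Named were the members, Alas2, Cyp1a1, Cyp1a2, list genes past the threshold or of smallest p at the top doses, fixed partners of Alas1, and the 3 genes closest to each member; Ccng2, Irs2, and the genes in the added relations of Alas1 were chosen after their values were seen. In simulated data of this size for 970 mg/kg, 95 of 100 changes of 1.5-fold and 99 of 100 changes of 2-fold were called, beside 9 false calls. The changed probe sets were drawn at random. These shares therefore do not apply to Alas1, whose within-group SD exceeded that of 97.9% of all probe sets. With only 2 probe sets called in the real comparison, its adjusted threshold was also harder to pass than in the simulation. Animals that share a replicate number across groups did not deviate together (90 pairs, mean r = 0.00485, range -0.25 to 0.26, 15 over 0.1), so numbers were not used as pairs.

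Alternatives were array weights, cyclic loess or median centring of the arrays, the replicate block, a robust trended prior, unmoderated variances, bright probe sets alone, the mean of probe sets, the 12 compared samples alone, either of beta-actin and erythroid levels as a covariate, other thresholds, other slopes, and each sample left out.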

Additional observations from a re-analysis of the deposited data

Results flagged for a closer look

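Of 42 group values tested for a sample standing apart (7 members in 6 groups), 2 did, where chance gives about 1 in 20 groups, and both were the highest Alas1 of their group. At 970 mg/kg replicate 4 had 11.19, with the nearest other animal at 10.35, and the gap was 0.702 of the group's range. In vehicle livers replicate 1 had 10.97, with the nearest other animal at 10.31, and the gap was 0.698 of the range. The limit for 6 samples is 0.625.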

How the results depend on the processing

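Under the alternatives run, 0 members passed the threshold in any comparison. Of 407 values over 13 settings, 13 changed sign and 0 crossed the threshold; of 1332 values with 1 animal left out, 25 changed sign. All sign changes were of values close to 0 that had not passed. Alas1 turned to -0.02 at 0.97 and -0.04 at 9.71 mg/kg with the erythroid level as a covariate, to -0.05 at 970 mg/kg with array weights, to 0.01 for 970 against 97.1 mg/kg with the beta-actin covariate, and per dose step to -4.2e-03 with array weights, -2.0e-05 per mg/kg and -0.01 without vehicle. Uros turned to -8.9e-05 (centred arrays) and -0.02 (erythroid covariate) at 9.71 mg/kg and to 4.7e-03 at 970 mg/kg (mean of its probe sets). Cpox turned to 8.6e-04 at 0.97 mg/kg (erythroid covariate) and to -0.01 at 970 mg/kg with array weights and with beta-actin. With 1 animal left out, Alas1 ranged from -0.02 to 0.16 at 0.97, -0.01 to 0.18 at 9.71, -0.02 to 0.24 at 97.1 and -0.13 to 0.16 at 970 mg/kg, from -0.25 to 0.05 for 970 against 97.1 mg/kg and from -0.02 to 0.02 per dose step. Uros ranged from -0.03 to 0.03 at 9.71 mg/kg, Cpox from -0.05 to 2.3e-03 at 0.1 and -0.03 to 0.05 at 970 mg/kg, and Fech from -4.6e-03 to 0.08 at 0.1, -0.02 to 0.05 at 97.1 and -0.08 to 0.01 at 970 mg/kg. The count of all probe sets past the threshold for 970 against 97.1 mg/kg, 2, was 1 at a threshold of 0.01 and with either covariate, and 1 to 3 with 1 animal left out (1 without replicate 1, 4, 5 or 6 of 97.1 mg/kg or replicate 4, 5 or 6 of 970 mg/kg, and 3 without replicate 1 of 970 mg/kg); the slope on dose in mg/kg called 15 against 2 per dose step. With the replicate number as a block, which does not pair the animals, 0 members passed and the count at 970 mg/kg was 2, as without it. Of the 28 relations over residuals, 0 passed with the beta-actin difference or the erythroid level also removed, as in the reported test; of the 14 with Cyp1a1, 0 passed with Spearman's rho, an alternative chosen after seeing the data. Alternatives of background correction were not run, since scanner files were not used here.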
